A study of Caenorhabditis elegans with 2 samples.

Results

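In the nematode worm, LIN-1 belongs to the ETS family of transcription factors and is a target of Ras and ERK signalling, best known from the vulva and the excretory duct cell. Its binding was mapped by chromatin immunoprecipitation followed by sequencing (ChIP-seq), and the peaks described here are those whose summit, the position of highest signal, lay inside a transcribed exon of a protein-coding gene. Of 2267 peaks that passed the authors' comparison of both replicates, 2243 were on nuclear chromosomes and 224 of these had their summit in an exon. The summit was in the coding sequence (CDS) for 107 peaks, in a 5′ untranslated region (5′ UTR) for 56 and in a 3′ untranslated region (3′ UTR) for 61. They were chosen by position alone, from the Ensembl annotation. A summit was placed in the CDS first, then the 5′ UTR and then the 3′ UTR, because 7 CDS summits also lay in a UTR of another transcript. The 224 peaks fell in 218 genes.

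Per the labels, the animals were whole L4 larvae of strain RW12212 at 48 hours, carrying st12212[lin-1::TY1::EGFP::3xFLAG] on chromosome IV, an insertion made by CRISPR at lin-1 itself. They were synchronised by starving first-stage larvae after bleaching. There was 1 group with 2 biological replicates, both of the tagged strain, and no other genotype or treatment was compared. The description names an antibody against GFP while the antibody field reads lin-1. The control experiment named in the labels was not used here, so signal from sources other than LIN-1 could not be told apart from its binding. In whole animals, a peak carried by few cells and a weak peak in many cells cannot be told apart either.

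ETS proteins recognise DNA around a GGAA core, and the CGGAAG word used here is the usual ETS site. Transcription factors are best known for binding promoters and distal enhancers. In the compact worm genome the 5′ UTR is next to the promoter and the 3′ UTR is often close to the start of the next gene, so an exonic summit can also be a promoter summit. Many worm 5′ ends are replaced by trans-spliced leaders, so an annotated 5′ UTR need not begin where transcription begins.

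The ETS word was rare at these peaks. CGGAAG, read on either strand within 50 bp to each side of the summit, was present at 8 of 224 peaks (3.57%, exact 95% binomial interval 1.55 to 6.92%), beside 3.97% of all nuclear peaks. By class it was at 4 of 107 CDS peaks (3.74%), 2 of 56 5′ UTR peaks (3.57%) and 2 of 61 3′ UTR peaks (3.28%). The same windows drawn at every position of a class held it at 4.87% of CDS, 2.88% of 5′ UTR and 1.68% of 3′ UTR positions. In windows centred 500 bp to each side of the 224 summits it was present in 24 of 448 (5.36%, interval 3.46 to 7.87%), so it was not more frequent at the summit than beside it. In the own list of replicate 2 the word was at 3 of 110 exonic summits (2.73%, interval 0.566 to 7.76%). In that of replicate 1 it was at 3 of 89 (3.37%, interval 0.701 to 9.54%). By class, 0 of the 37 CDS summits of replicate 2 had it (interval up to 9.49%). Neither did any of the 25 5′ UTR (up to 13.7%) and 22 3′ UTR summits (up to 15.4%) of replicate 1. These counts are too small to set the replicates apart. The 8 peaks with the word, singled out after their values were seen, are shown with the word in capitals. Each 30-base stretch is read 5′ to 3′ on the strand that holds the word, in the ce11 (WBcel235) genome.
H35N09.2 in the CDS, chrX:8604408-8604437, minus strand: tcgaggaaactcCGGAAGgaaggtcgttct
gck-1 in the CDS, chrV:8949191-8949220, plus strand: ccagctgaacggCGGAAGgtggttaaacca
kcnl-4 in the CDS, chrV:14542359-14542388, plus strand: gctcttatcagtCGGAAGttgattttaact
T07A5.1 in the CDS, chrIII:10305485-10305514, plus strand: tgaccggaaactCGGAAGcaaaattctgat
clec-140 in the 5′ UTR, chrII:4674387-4674416, minus strand: atcgggaaagtaCGGAAGaactgataacat
ldb-1 in the 5′ UTR, chrX:11037107-11037136, plus strand: cccagaacgcggCGGAAGaaggcagtaccg
Y43F8B.3 in the 3′ UTR, chrV:19519705-19519734, minus strand: attagactttatCGGAAGcctacactcccg
slcf-1 in the 3′ UTR, chrX:10532599-10532628, plus strand: aattataggtccCGGAAGtgtcaagaagca

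H35N09.2 held the highest of these peaks, with a signal of 104.2 in the conservative list and 46.4 and 54.1 in replicates 1 and 2. It was the only one of the 8 found in the own lists of both replicates. gck-1, a germinal centre kinase, followed with 92.7 (52.8 and 40.4), and ldb-1, a LIM domain-binding protein, was lowest with 6.09, on a peak whose replicate values are those of a stronger neighbour. Only H35N09.2 lay in a promoter window, that of its neighbour H35N09.1. Such windows run from 1000 bp upstream to 200 bp downstream of a gene start. Counted from the nearest coding transcript start of its gene, gck-1 lay at -303 bp. With windows at every such start gck-1 would be in one, and how many of the 8 peaks would be was not counted.

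None of the 6 highest peaks of each class had the word within 50 bp of its summit. As only 3.97% of all nuclear peaks had it, so few peaks do not set the strongest apart. H35N09.2, which had the word, ranked 7 in the CDS. Some summits of the 6 highest peaks of each class are shown next, as the 30 bases around the summit on the plus strand. In the CDS, mix-1 and F56A11.4 ranked above pks-1 and are not shown, as each had a non-coding RNA gene within 200 bp.
dos-3 in the CDS, chrIII:835928-835957: aagcgatttggccctggagccaatccacgt
pks-1 in the CDS, chrX:5429511-5429540: cagtaccccttccactctaaccttatccaa
Y43F8B.2 in the 5′ UTR, chrV:19522846-19522875: cccccgaggggcggggagagaatacgagag
C34C12.2 in the 5′ UTR, chrIII:3456396-3456425: cgtcacggtgtctgcagactttttgcgcga
C05D11.8 in the 3′ UTR, chrIII:6421219-6421248: ctgtctgcgtctccacggcgtcagacactg
Y82E9BR.3 and lelo-2 in the 3′ UTR, chrIII:1419842-1419871: aacgatttacgaatgaaataattttacctt

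Coding exons held far fewer summits than their length. They make up 24.7% of the nuclear genome, and 107 of 2243 nuclear summits (4.77%, exact 95% binomial interval 3.93 to 5.74%) lay in them. The 5′ UTRs make up 1.43% of the genome and held 2.50% of summits (interval 1.89 to 3.23%). The 3′ UTRs make up 3.31% and held 2.72% (interval 2.09 to 3.48%). Among the other nuclear summits, 1190 were intergenic, 482 in introns and 347 in exons of non-coding genes. Intervals here and in all that follows cover counting error over peaks, and peaks are not independent replicates of the experiment.

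The authors also made a list for each replicate by itself, called own lists here. Of 1054 nuclear summits of replicate 1, 42 lay in the CDS (3.98%), 25 in a 5′ UTR (2.37%) and 22 in a 3′ UTR (2.09%). Of 1326 in replicate 2, 37 lay in the CDS (2.79%), 42 in a 5′ UTR (3.17%) and 31 in a 3′ UTR (2.34%). The CDS share was lowest in the own list of replicate 2 (interval 1.97 to 3.83%), under the 4.77% of the conservative list. In replicate 1 the value was lower too, but its interval (2.89 to 5.35%) includes 4.77%. The 5′ UTR share was above its share of the genome in both, although in replicate 1 the interval began at 1.54%. With only the longest coding transcript of each gene annotated it was 1.56% (interval 1.09 to 2.16%), and the share of bases under that annotation was not computed. The list itself ends at an irreproducible discovery rate (IDR) of 0.01, which is low where a peak ranks alike in both replicates. At an IDR of 0.001 or less (interval 1.27 to 2.98%) and among peaks in both own lists (1.03 to 3.26%) the interval included 1.43%.

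X held 33 of the 224 exonic peaks (14.7%, interval 10.4 to 20.1%), beside 21.5% of all nuclear peaks, 18.9% of those in introns and 34.9% of those in non-coding exons. Chromosome III held 47 (21%, interval 15.8 to 26.9%), and the interval includes the 16.3% of all nuclear peaks. The CDS had 23 of its 107 on III and 18 on X, and the 3′ UTRs 14 of 61 on III and 6 on X.

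**Figure D1:**
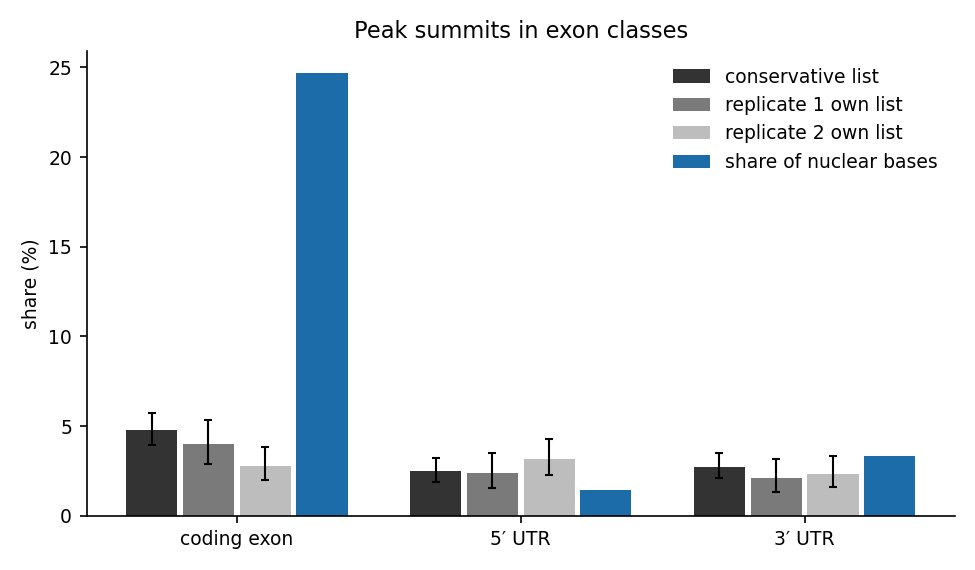
Share of nuclear peak summits (y axis, %) in coding exons, 5′ UTRs and 3′ UTRs in the conservative list and in each replicate's own list, with exact 95% binomial intervals, beside the share of nuclear bases in each class (blue bars). The CDS bars, from 2.79 to 4.77%, stand far under the 24.7% of bases, the 5′ UTR bars, from 2.37 to 3.17%, stand above the 1.43% of bases, and the 3′ UTR bars, from 2.09 to 2.72%, under the 3.31%.

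The summit alone sets the class, and many summits lay close to an exon edge. Of the 224, 88 (39.3%) lay within 50 bp of an edge of their exon. In the replicates' own ranked lists, the highest overlapping peak had its summit in the same class for 89 of 107 CDS peaks in replicate 1 and 89 of 107 in replicate 2. For 5′ UTR peaks these counts were 42 and 46 of 56, and for 3′ UTR peaks 45 of 60 and 49 of 57. Both replicates placed the summit in the same class for 158 of the 219 peaks that had one in each (72.1%). The median distance between the conservative summit and that of a replicate ran from 11.5 bp (5′ UTR, replicate 1) to 34 bp (3′ UTR, replicate 1).

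Exonic peaks were weaker than the rest. The signal is the authors' value on a scale that is not stated, and it is used here only to rank and describe peaks. Its median was 60.3 for CDS peaks (quartiles 54.1 and 73.9), 68.1 for 5′ UTR peaks (59.7 and 82.9) and 65.5 for 3′ UTR peaks (54 and 83.7), beside 75.4 for the 2019 other nuclear peaks, 71.1 for those in introns and 74.9 for those between genes. The strongest exonic peak reached 169.5, in the 3′ UTR of C05D11.8, while the strongest nuclear peak reached 516.4. The classes overlapped widely. In the replicates' own ranked lists the medians were 30.2 and 33.0 for CDS, 32.2 and 36.4 for 5′ UTR and 32.5 and 37 for 3′ UTR peaks, beside 36 and 40.9 for all nuclear peaks. Both replicates thus gave the same order between exonic peaks and the whole.

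Replicates differed at single peaks about as much in exons as elsewhere. The log2 ratio of replicate 2 to replicate 1 had a median of 0.16 over 219 exonic peaks with a standard deviation of 0.46, and a median of 0.19 with the same standard deviation over 2192 nuclear peaks. Signals differed by more than 1.5-fold between replicates at 52 of the 219 (23.7%) and at 540 of the 2192 (24.6%). Replicate differences above that cutoff were thus common at single peaks. The error of a difference between peaks was not computed, so small differences between single peaks are not interpreted.

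**Figure D2:**
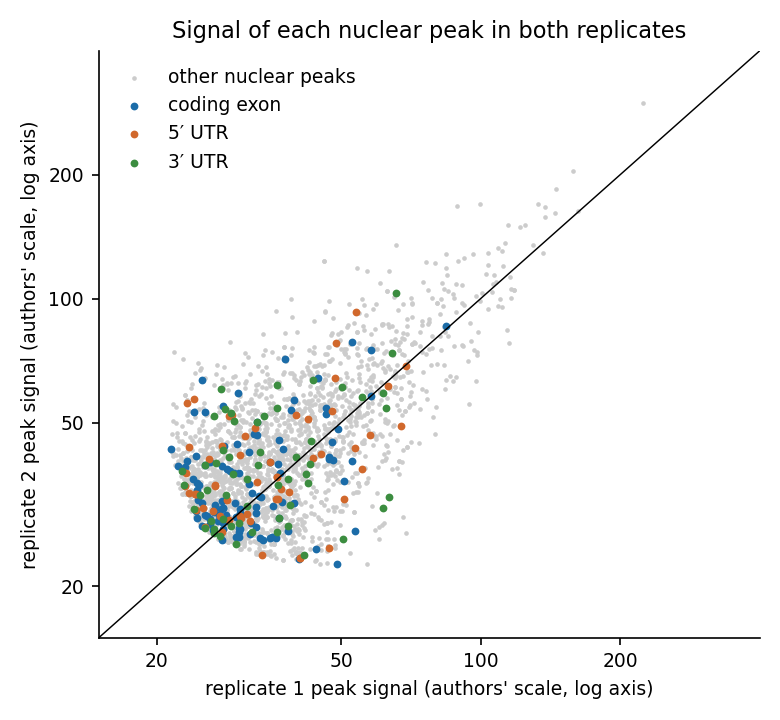
Signal of the 2192 nuclear conservative peaks with a value in both replicates, in replicate 1 (x axis) and replicate 2 (y axis), both on log axes in the authors' scale; the line marks equal values. Exonic peaks (coloured) lie inside the cloud of other nuclear peaks (grey) and mostly in its lower part, with medians of 31.3 and 35.3.

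Exonic peaks were also less often called in each replicate by itself. A peak is counted here when it overlaps by 1 bp or more a thresholded peak of both replicates' own lists. This held for 34 of 224 exonic peaks (15.2%, interval 10.7 to 20.6%), beside 30.2% of all nuclear peaks. It held for 13 of 107 CDS peaks (12.1%, interval 6.63 to 19.9%), 13 of 56 5′ UTR peaks (23.2%, interval 13.0 to 36.4%) and 8 of 61 3′ UTR peaks (13.1%, interval 5.84 to 24.2%). Another 50 were called in replicate 2 alone and 30 in replicate 1 alone, and 110 (49.1%) in neither own list, beside 35.3% of all nuclear peaks. The CDS had most of these, with 65 of 107 in neither.

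Signal moved with this share. Among exonic peaks in the top 25% of nuclear signals, above 96.1, all 22 were in both own lists, beside 86.6% of the 539 other nuclear peaks there. In the next 25% 10 of 49 were (20.4%, interval 10.2 to 34.3%), beside 26.6% of the others. In the lowest 25% 1 of 99 was (1.01%), beside 5.41%. The exonic peaks had 44.2% of their number in that lowest band and 9.82% in the highest. The part of signal in the lower share was not tested further. In addition, 22 of the 224 (9.82%, interval 6.26 to 14.5%) had replicate values identical to those of a stronger peak in both replicates, beside 5.75% of all nuclear peaks.

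**Figure D3:**
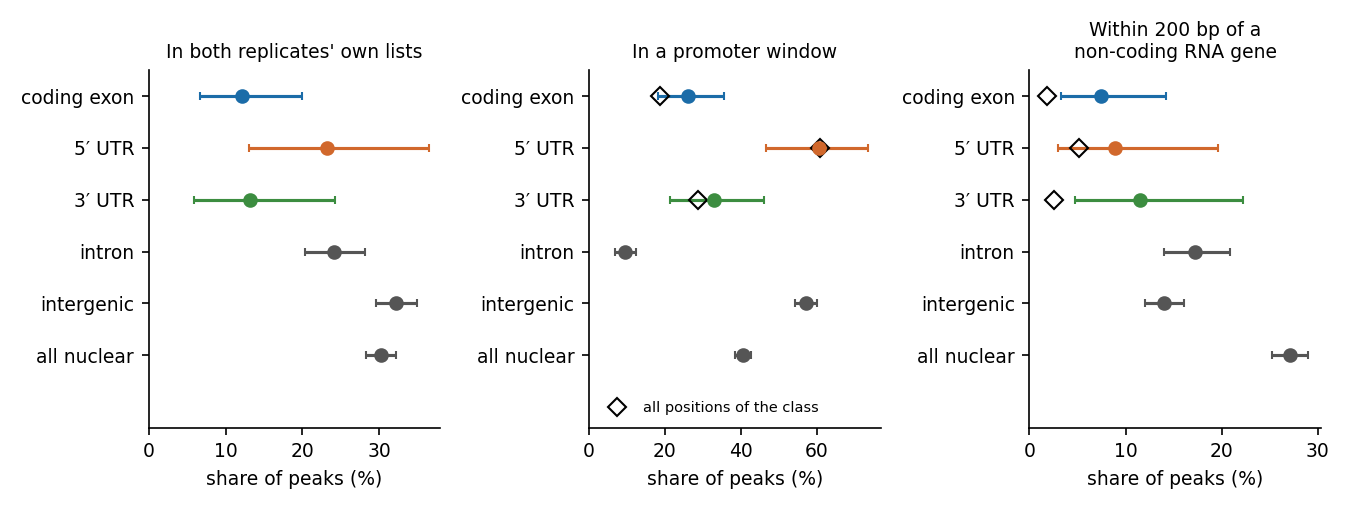
Share of peaks (x axes, %) that were called in both replicates' own lists, lay in a promoter window or lay within 200 bp of a non-coding RNA gene, for each class of summit, with exact 95% binomial intervals (bars); open diamonds give the share of all positions of the class. The 3 exon classes sit left of all nuclear peaks in the first and last panel, and near their own positions in the middle one.

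Exonic summits lay in promoter windows about as often as other nuclear summits. The window runs from 1000 bp upstream to 200 bp downstream of the annotated start of a protein-coding gene. It held 82 of the 224 (36.6%, interval 30.3 to 43.3%), beside 40.5% of all nuclear summits and 21.5% of all nuclear positions. It held 28 of 107 CDS summits (26.2%, interval 18.1 to 35.6%), where 18.7% of all CDS positions are in such a window. For 5′ UTR summits it held 34 of 56 (60.7%, interval 46.8 to 73.5%), where 60.8% of positions are. For 3′ UTR summits it held 20 of 61 (32.8%, interval 21.3 to 46%), where 28.6% of positions are. Each of these intervals includes the share of its own class of positions, for the CDS only just. In the own list of replicate 1 the CDS share was 16 of 42 (38.1%, interval 23.6 to 54.4%), an interval that includes 26.2%. The 3′ UTR share there was 4 of 22 (18.2%, interval 5.19 to 40.3%), and its interval includes both 32.8% and 28.6%. In the authors' other list of the series the CDS share was 29.1% (interval 20.6 to 38.9%). Neither this interval nor the CDS interval of replicate 1 includes 18.7%. In the own list of replicate 2 the CDS share was 10 of 37 (27.0%, interval 13.8 to 44.1%), which does include it. So do the CDS intervals with repeated peaks left out (16.5 to 34.5%) and among peaks in both own lists (9.09 to 61.4%).

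The classes differed in whose promoter it was. Of the 28 CDS summits in a window, 18 were in the window of their own gene and 10 only in that of another. Of the 34 5′ UTR summits, 30 were in that of their own gene. All 20 3′ UTR summits were in the window of another gene, on the same strand in each case, at 2 to 930 bp upstream of its start. The arrangement of genes largely fixes that direction. Windows at the start of every coding transcript were an alternative added after the data were seen. They raised the shares to 39.25% in the CDS, 89.3% in 5′ UTRs and 36.07% in 3′ UTRs. Choosing summits inside 5′ UTRs largely fixes the 5′ UTR value, and the shares of positions in these windows were not computed. Over all exonic summits the share was then 50.9%, beside 47.7% of all nuclear summits. Peaks in both own lists were 13 of 82 in promoter windows (15.9%, interval 8.72 to 25.6%) and 21 of 142 outside them (14.8%, interval 9.39 to 21.7%).

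Non-coding RNA genes lay near few exonic summits. The genes counted are tRNA, snoRNA, snRNA, miRNA, rRNA, lincRNA, antisense and ncRNA genes within 200 bp. They lay near 20 of the 224 (8.93%, interval 5.54 to 13.5%), beside 27.1% of all nuclear summits. That share takes in the 347 summits in non-coding exons, while 17.2% of summits in introns and 13.9% of those between genes had such a gene near. By class they lay near 8 CDS (7.48%), 5 5′ UTR (8.93%) and 7 3′ UTR summits (11.5%), where 1.82%, 5.19% and 2.58% of the positions of each class have such a gene near. The intervals for CDS (3.28 to 14.2%) and 3′ UTR (4.74 to 22.2%) begin above the share of positions, and that for 5′ UTR (2.96 to 19.6%) does not. In the own list of replicate 2 the share was 14.5% over all 3 classes, 16.2% in the CDS and 14.3% in 5′ UTRs, beside 29.03% of all its nuclear summits. In that of replicate 1 it was 11.2%, 11.9% and 12%, beside 31.97% of all. Of the 20, 13 had an ncRNA gene near, 4 a snoRNA gene, 4 a tRNA gene and 1 a lincRNA gene, with some near 2 kinds. All 4 near a snoRNA gene were in the CDS.

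CDS summits were most frequent in the last part of the coding sequence. Divided into 4 equal parts by position along the coding bases, the CDS held 28, 20, 15 and 44 summits from start to stop. The last part therefore had 41.1% (interval 31.7 to 51%), where 25% of coding bases lie by construction. The first had 26.2%. In the own lists the last part had 13 of 42 summits in replicate 1 (31.0%, interval 17.6 to 47.1%) and 14 of 37 in replicate 2 (37.8%, interval 22.5 to 55.2%), and both of these intervals include 25%. At an IDR of 0.001 or less it had 10 of 28 (35.7%, interval 18.6 to 55.9%), which includes it too. The parts differed in their promoters. In the first 14 of 28 summits were in the promoter window of their own gene, and in the last 1 of 44 was. Of the 44, 28 were in the last coding exon, and the median distance to the stop codon was 136.5 bp. Over all 107 the median distance past the start codon was 1267 bp along the genome, beside 967 bp in the own list of replicate 2 and 585.5 bp in that of replicate 1.

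The 5′ UTR summits were close to an annotated transcript start and the 3′ UTR summits to the stop codon. Choosing summits inside UTRs largely fixes this, and these distances were not computed for all positions of a class. The median 5′ UTR summit was 28.5 bp downstream of the nearest annotated transcript start of its gene (quartiles 0 and 102 bp), and 45 of 56 were within 200 bp of one. In 53 of 56 it was in the first exon. The median 3′ UTR summit was 297 bp past the stop codon (quartiles 151 and 429 bp), and the farthest was 1431 bp past it, in mnk-1. Base composition followed the class in part: the median GC content of the same windows around the summit was 45.5% in the CDS, 46.5% in 5′ UTRs and 35.6% in 3′ UTRs. Each was higher than at all positions of its class (40.6%, 35.6% and 30.7%). This was not particular to exons, as the median over all nuclear peaks was 45.5%, beside 34.7% at all nuclear positions.

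**Figure D4:**
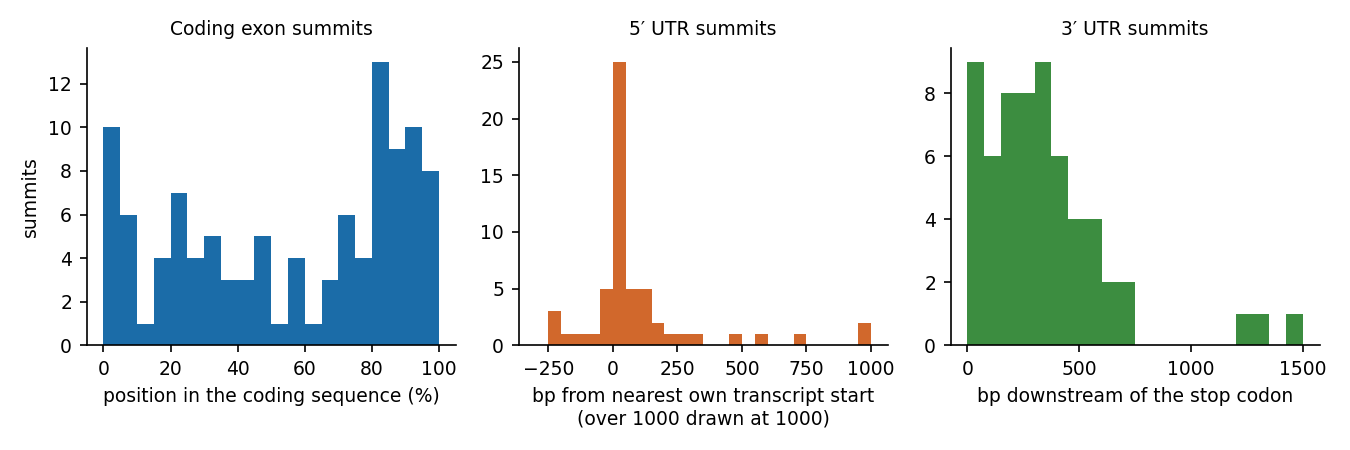
Number of summits (y axis) by position along the coding sequence (%), by distance from the nearest transcript start of the same gene (bp) and by distance past the stop codon (bp), in coding exons, 5′ UTRs and 3′ UTRs. CDS summits are most frequent in the last 25% of the coding sequence (44 of 107), and 5′ UTR summits pile up at the start, with a median of 28.5 bp.

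Among CDS peaks, dos-3 on chromosome III was the strongest. The gene encodes a secreted relative of Notch ligands of the DSL and OSM-11 kind. Its peak spanned chrIII:835841-836014, with the summit in the last of 11 exons, 128 bp before the stop codon, and its conservative signal was 168.2. Replicate 1 gave 84.0 and replicate 2 gave 85.6, in each the highest value of any CDS peak. It was in both own lists, outside promoter windows and more than 200 bp from any non-coding RNA gene.

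mix-1, which encodes a structural subunit of the condensin and dosage compensation complexes, had the next CDS peak, with a signal of 135.3 (57.9 and 75.1 in replicates 1 and 2). F56A11.4 had 131.7 (52.7 and 78.4). At both, a non-coding RNA gene was within 200 bp of the summit, the snoRNA gene M106.6 at mix-1 and the ncRNA gene F56A11.12 at F56A11.4. Replicate 2 was the higher at both. The summit lay 0 bp from an exon edge at mix-1 and 5 bp from one at F56A11.4. Replicate 1 placed its own summit in the CDS at both. That of replicate 2, 13 and 23 bp away, was in no CDS or UTR, so the class of these peaks is not firm. In the CDS of hsp-1, a constitutive HSP70 chaperone, the snoRNA gene F26D10.24 was near a peak of 95.8 (49.3 and 48.3), nearly equal in the replicates.

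pks-1, a polyketide synthase gene, had a CDS peak of 115.5 at chrX:5429378-5429673, in exon 22 of 30. The replicates gave 58.0 and 58.1. The summit was 12392 bp before the stop codon along the genome, and no promoter window or non-coding RNA gene was near it. ltah-1.2, related to leukotriene A4 hydrolase, had 110.6, with 37.8 in replicate 1 and 71.2 in replicate 2, a wide gap between replicates. C40H1.7 had 95.2 (39.0 and 53.8), in the last part of its coding sequence. These 3 with dos-3 and lfe-2, which lies on chromosome I and had 86.6 (39.5 and 56.7), were the 5 highest CDS peaks of their kind. Those are peaks in both own lists, outside windows drawn at gene starts and away from non-coding RNA genes. Counted from the nearest coding transcript start of the same gene, ltah-1.2 lay at -389 bp and C40H1.7 at -113 bp. With windows at every such start, both would be in a promoter window. Y18D10A.4, with 111.6 (44.5 and 64.0), was high too, but in the promoter window of its own gene.

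The other CDS peaks named here belong to genes of the lists. hrpa-1, an hnRNP A1 homologue, had 89.1 (47.9 and 44.9), 15 bp past its start codon, and was called in replicate 1 alone. vha-2, a proteolipid subunit of the vacuolar ATPase, had 82.1 (48.0 and 40.6) in both own lists, in the promoter window of its own gene. ceh-60, a PBC-class homeobox gene, had 73.6 (37.3 and 32) in exon 9 of 10. eif-2Bdelta had 69.2, hsp-110 62.3, rpl-19 56, and the collagen genes col-13 and col-95 56.1 and 54.3, none of them in either own list. nhr-150 had a peak of 3.92, whose replicate values are those of a stronger one.

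The CDS of an ETS gene itself held a peak. ets-10 had 61.1 in the conservative list, from 23.2 in replicate 1 and 40.3 in replicate 2, in exon 4 of 5, and was called in replicate 2 alone. Of 9 genes in the ETS list it was the only one with an exonic summit, where 1.09% of all protein-coding genes had one, and CGGAAG was not within 50 bp of its summit.

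Some genes held several exonic peaks. icl-1, the bifunctional enzyme of the glyoxylate cycle, had 3 in its CDS with signals of 59.2, 36.5 and 13.7, none in either own list. The last pair overlapped each other and shared the same replicate 2 signal of 43.2. Its strongest, 158 bp past the start codon, also lay in the promoter window of srh-2, 502 bp upstream of that gene's start. ubq-1, which encodes polyubiquitin, had peaks of 58.8 and 22.6 in exon 5 of 6, the lower one with the replicate signals of the higher. mnk-1, a kinase related to the MAP kinase-interacting kinases, had 1 in the CDS (56.8) and 2 in the 3′ UTR (65.5 and 43.1), the last pair near the ncRNA gene WBGene00014492. ant-1.1, a mitochondrial ADP and ATP carrier, had a 5′ UTR peak of 70.5 (31.0 and 46.3), called in replicate 2 alone, and a 3′ UTR peak of 105.9 (43.4 and 63.5) in both own lists. The latter was 215 bp upstream of the start of kel-3.

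**Figure D5:**
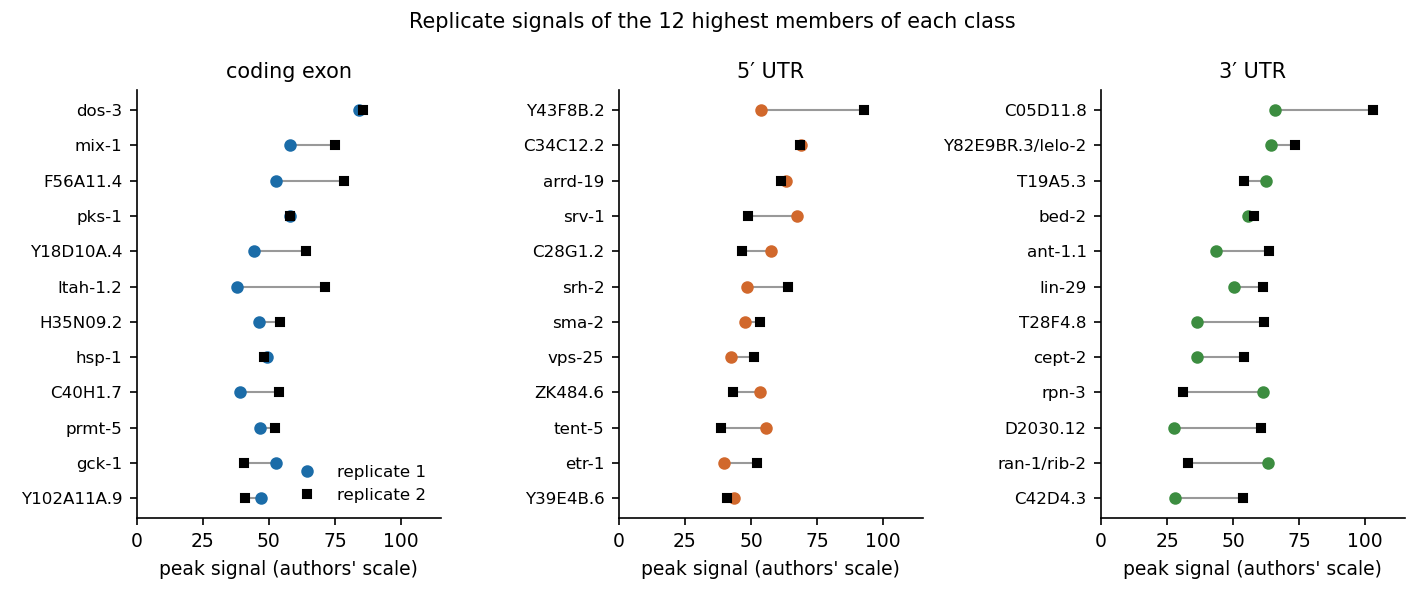
Signal in replicate 1 (coloured circles) and replicate 2 (black squares), on the x axis in the authors' scale, for the 12 peaks of highest conservative signal in each class (y axis, by gene). dos-3, pks-1 and C34C12.2 had nearly equal values in both replicates, while Y43F8B.2 and C05D11.8 were much higher in replicate 2, at 92.7 and 103.1.

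Among 5′ UTR peaks, Y43F8B.2 was the strongest, with a signal of 144.2 at chrV:19522713-19523008. The replicates gave 53.8 and 92.7, and the summit lay on an annotated transcript start. It was outside the promoter window, which is drawn at the outermost start of the gene. C34C12.2 had 135.1 with 68.9 and 68.7, 189 bp before the start codon and also outside promoter windows. Both were in both own lists.

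Of the next, 3 were in promoter windows. arrd-19, an arrestin-domain gene, had 126.0 (63.2 and 61.2), 6 bp from its start, in a window it shares with F35F10.1. srv-1, in a family of chemoreceptors, had 116.5 (67.3 and 49.0) at 45 bp from its start. C28G1.2 had 108.2 (57.8 and 46.7), in a window shared with sec-15 and within 200 bp of a tRNA gene and 2 ncRNA genes. The others were outside promoter windows. srh-2, another chemoreceptor gene, had 105.3 (48.4 and 64.0), 72 bp from a transcript start. On chromosome I, vps-25, an ESCRT-II subunit, had 99.4 (42.4 and 51.1) and ZK484.6 had 95.1 (53.5 and 43.3). Replicate 1 was the higher at srv-1, C28G1.2 and ZK484.6 and replicate 2 at srh-2 and vps-25.

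Nuclear hormone receptor genes supplied 4 of the 5′ UTR peaks. nhr-8, a receptor known for roles in xenobiotic and sterol responses, had 87.9 (45.1 and 41.9) and was the only one in both own lists. nhr-131 had 79.7 with 24.1 in replicate 1 and 57.1 in replicate 2, far apart. nhr-66 had 63.2 (30.4 and 29.3) and nhr-21 60.6 (27.7 and 27.1). lin-28, an RNA-binding protein gene that sets the timing of larval cell fates, had 69.3 (27.6 and 43.9) and was called in replicate 2 alone. F46C5.10 and M01H9.3 each had 2 peaks in a 5′ UTR, the stronger at 67.4 and 60.5, with the same replicate signals at both peaks of a gene.

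Among 3′ UTR peaks, C05D11.8 held the strongest, at chrIII:6421086-6421381, with a signal of 169.5. Replicate 1 gave 65.7 and replicate 2 gave 103.1, and the summit lay 1225 bp past the stop codon. A weaker one of 55.2, in neither own list, lay 120 bp past it. The overlapping 3′ UTR of Y82E9BR.3 and lelo-2 had 144.2 (64.5 and 73.6). T19A5.3 had 122.6 (62.6 and 54.2) and bed-2, a BED zinc finger gene, 108.8 (55.6 and 57.7). These 4 highest were outside promoter windows, in both own lists, and had no non-coding RNA gene near.

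lin-29 encodes a zinc finger transcription factor that drives the larva-to-adult switch of the epidermis. Its 3′ UTR held a peak of 105.0 at chrII:11917647-11917942, with 50.4 in replicate 1 and 61.1 in replicate 2, 544 bp past the stop codon. It was in both own lists and away from promoter windows. Of 9 genes in the heterochronic list, which act in developmental timing, lin-29 and lin-28 had an exonic summit, 1 in each kind of UTR, where 1.09% of all protein-coding genes had one.

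Other 3′ UTR peaks lay upstream of a next gene. rpn-3, a proteasome regulatory subunit, had 92.1 with 61.4 in replicate 1 and 30.9 in replicate 2, 423 bp upstream of mrpl-32. vha-13, a catalytic subunit of the vacuolar ATPase, had 68.8 (36.8 and 29.2), 2 bp upstream of the annotated start of Y49A3A.3. The homeobox gene ceh-8, on chromosome I, had 85.4 (43.1 and 45.1), 666 bp upstream of col-63 and near the ncRNA gene ZK265.11. hsp-6, the mitochondrial HSP70, had 39.4, 828 bp upstream of adss-1. nhr-19 had 55 and snrp-200, a spliceosome helicase, 7.70, both outside promoter windows.

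The gene lists held between 0 and 6 genes with an exonic summit. Over all 19973 nuclear protein-coding genes 218 (1.09%) had one. The highest shares, 2 of 9 heterochronic genes (22.2%) and 1 of 9 ETS genes (11.1%), were in lists of few genes. Of 274 nuclear hormone receptor genes 6 did (2.19%), of 60 heat shock and DnaJ chaperone genes 3 (5.00%), of 21 vacuolar ATPase genes 2 (9.52%) and of 87 homeobox genes 2 (2.30%). Of 1189 chemoreceptor genes 2 did (0.168%), of 173 cuticle collagens 2 (1.16%) and of 81 ribosomal protein genes 1 (1.23%). Of 61 proteasome and ubiquitin genes 2 did (3.28%), of 53 splicing and RNA-binding genes 2 (3.77%) and of 40 translation factors 1 (2.50%). No member of the lists of 33 EGF, Ras and ERK pathway genes, 38 Wnt and Notch genes, 25 synMuv genes, 8 sqv genes, 81 histones or 43 oxidative phosphorylation genes had one. The lists were set by gene names and need not be complete. dos-3 is not in the Wnt and Notch list. Nor is epc-1, with a CDS peak of 62.5, in the synMuv list, or lsm-3, with one of 77.7, in the splicing list. Counts this small set no list apart.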

How the data were processed

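Members and gene lists were chosen with earlier results of these data known. Peak lists on ce11 were deposited by the authors and, per the labels, come from 2 biological replicates; the sources used here do not give the peak caller, its version or the read depth. The authors gave each peak a signal (scale not stated), a score and, in ranked lists, the −log10 of its global irreproducible discovery rate (IDR). The thresholded lists hold peaks at 0.01 or less. From these, summits (1-based) were assigned with the Ensembl 115 annotation of WBcel235 (the same assembly), the stop codon counted as CDS; 24 mitochondrial peaks were left out. Sequences were read from the WBcel235 genome. Python 3.11.15, NumPy 2.4.6, SciPy 1.17.1 and Matplotlib 3.10.9 were used. The class assignment and promoter windows were tested at random positions against a plain scan of the same annotation. The motif search was tested on matches planted in random sequence. A replicate's signal is that of the highest overlapping peak in its own ranked list. Intervals are exact 95% binomial ones. No p-value was computed: 1 group leaves no comparison between conditions. Named genes are, per class, the 6 highest peaks, the 5 highest in both own lists away from promoters and non-coding RNA genes, every gene with 2 or more peaks and every list member; the 8 with the ETS word are added. Alternatives changed the list, class order, annotation, window, motif and overlap.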

Additional observations from a re-analysis of the deposited data

How the results depend on the processing

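Across the alternatives to the main shares, medians and distances, 53 values stayed within the interval or spread of the main value and 23 moved out of it. Using 1 replicate's own list gave 2.79 to 3.98% of summits in the CDS, 11.2 to 14.5% of exonic peaks near a non-coding RNA gene, 31.0 to 37.8% of CDS summits in the last 25% of the coding sequence, and a median signal of 41.8 to 45.6 on the scale of a single replicate. An IDR of 0.001 or less gave 2.43% in the CDS, 44.7% in both own lists (57.9% of all nuclear peaks) and a median signal of 88.3. Peaks in both own lists gave 1.92% in the CDS, 1.18% in 3′ UTRs, 17.6% near a non-coding RNA gene (33.7% of all) and a median of 105.2. Annotating only the longest coding transcript gave 1.56% in 5′ UTRs. Asking for 1 bp of the peak in place of the summit gave 21.5% in the CDS, 6.69% in 5′ UTRs and 5.97% in 3′ UTRs. A promoter window of 500 bp upstream and 100 bp downstream held 24.6% (30.2% of all nuclear peaks), one of 2000 and 500 bp held 54% (56.4%), and windows at every coding transcript start 50.9% (47.7%). The word CGGAA was at 17.9% of exonic peaks (16.4% of all), GGAAG at 21.4% (18.6%) and CCGGAAG at 0.893% (0.981%). With a non-coding RNA gene required to hold the summit, the share was 2.68% (15.6% of all). The cause of these moves, beyond the fewer or wider features each setting counts, was not tested. No paired analysis was possible because there is 1 group. Read depth is unknown, so no limit from it can be given.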
